A study of Mus musculus with 4 samples.

Results

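Fibronectin (Fn1) and 9 integrin chain genes of macrophages (Itgax, Itgam, Itgal, Itgb2, Itga4, Itga5, Itgav, Itgb1 and Itgb3) were compared between macrophages without PP2ACα (Ppp2ca), a catalytic subunit of the phosphatase PP2A, and their controls. The 10 genes were chosen by name, with earlier results of these data known. They came out of 22180 genes that had an array feature annotated with a single gene symbol. Where a gene had several features, the brightest on average was read. All 10 lay above the filter on low values and were among the 12542 genes tested. The study profiled total RNA of mouse bone marrow derived macrophages on 4 whole-transcript arrays. The control genotype, PP2ACαfl/fl, carried floxed alleles of Ppp2ca exon 1 without Cre, and the knockout genotype, PP2ACαfl/fl;lyM-Cre, carried the same alleles with a Cre recombinase acting in myeloid cells. Marrow cells of both genotypes were grown with L-cell supernatant, a source of macrophage growth factor, for 6 days and then given lipopolysaccharide (LPS) at 100 ng/ml for 2 hours, so every value below is of LPS-stimulated cells and none shows the response to LPS itself. There were 2 arrays per genotype, called biological replicates in the labels, with no word on separate mice; so few arrays limit the precision, and p-values measure only the spread between them. Age, sex and strain background are not given in the sources used here.

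Integrins are membrane receptors built of an alpha and a beta chain, which bind matrix proteins or surface proteins of other cells on the outside and the actin cytoskeleton, through talin and kindlin, on the inside. Leukocytes carry a family that shares the beta2 chain (Itgb2, CD18): with Itgal it forms LFA-1, with Itgam the phagocytic receptor Mac-1, and with Itgax (CD11c) complement receptor 4. Fibronectin is a secreted glycoprotein of the matrix and of plasma clots, and is bound by several integrins with alpha5, alphaV or alpha4 chains. Macrophages make fibronectin themselves, and Itgax marks dendritic cells and several tissue macrophages.

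The series as a whole set the frame for these values. Expression is given in log2 units as the authors normalized it, and a difference is always knockout minus control. The medians of the 4 arrays over all features lay between 3.50 and 3.57, and the correlation between any 2 arrays over all features was 0.986 to 0.990. The targeted gene Ppp2ca was measured at 8.25 and 7.59 on the control arrays and 4.36 and 3.39 on the knockout arrays, a difference of -4.04 (limma adjusted p = 0.0076); whether its feature covers exon 1 was not analysed here. Lyz2 differed by -5.19. It carries Cre in the widely used lysozyme M line, as which the labels' lyM-Cre is read here. Cre, the lower Lyz2 and the loss of Ppp2ca come together in the knockout arrays, so their parts in any difference cannot be told apart. All 8 macrophage markers with a feature were above the filter level of 3.53 on every array, the lowest reading being 8.17. The tests below are limma's, with Benjamini-Hochberg adjustment over all 12542 genes; "called", "rose" and "fell" mean an adjusted p under 0.05.

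Fn1 and Itgax were lower in knockout macrophages by far more than any other member, the integrin genes Itgal and Itga5 rose by small amounts, and 6 members were not called. Since the members were chosen with earlier results of these data known, their shares of calls are description only. In counts, 4 of 10 members were called, beside 6.79% of all tested genes. Of these, 2 of 10 members fell, beside 3.49% of all tested genes, and 2 of 10 rose, beside 3.3%. The median difference of the 10 genes was -0.16, against 0.0076 over all tested genes. In 9 of 10 members the knockout arrays lay entirely on one side of the control arrays, with 6 below and 3 above, but so did 55.3% of all tested genes. A difference of at least 1.5-fold on group means, the size that the series' design text used as its cutoff, was reached by Fn1 and Itgax alone among the members, beside 5.24% of all tested genes.

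**Figure D1:**
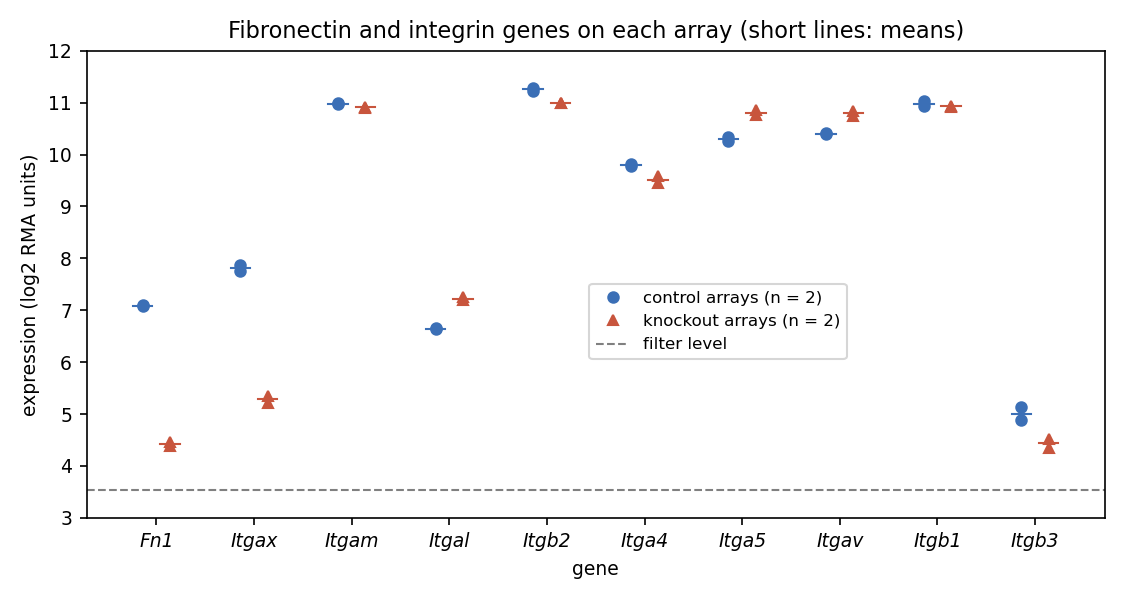
Expression in log2 RMA units (vertical axis) of the 10 genes (horizontal axis) on each control array (circles) and knockout array (triangles), with short lines at the group means and the filter level of 3.53 as a dashed line. Fn1 and Itgax stand apart from the rest, with knockout arrays at 4.39 to 5.35 against 7.08 to 7.87 in control; levels of different genes come from different probes and are not comparable with each other.

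The ligand of the set, Fn1, read 7.10 and 7.08 on the control arrays and 4.39 and 4.46 on the knockout arrays. The arrays of a genotype nearly coincided, and a gap of 2.61 log2 units parted the lower control array from the higher knockout array. The difference was -2.66 (SE 0.09, 95% interval -2.87 to -2.44, limma adjusted p = 0.00095), a level 6.31-fold lower in knockout. Only 0.0399% of tested genes differed by more in either direction. Fn1 had a single annotated feature, and which splice forms the feature reads was not analysed here. The knockout mean was 4.43, not far above the filter level of 3.53, and values near background understate a fold.

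Of the members whose alpha chains pair with beta2, Itgax fell, Itgal rose and Itgam was not called. Itgax read 7.87 and 7.77 in control and 5.35 and 5.22 in knockout, a difference of -2.54 (SE 0.10, 95% interval -2.78 to -2.29, adjusted p = 0.0012), or 5.81-fold lower. As for Fn1, the genotypes were far apart and the arrays of a genotype close together. Both falls were called whichever array was left out, and were not called without pooling the variance across genes (limma adjusted p = 0.14 each). Itgam read 10.99 and 10.96 in control and 10.91 in each knockout array. Its knockout arrays lay below the controls by only 0.06, and the difference of -0.07 had a 95% interval from -0.28 to 0.14 (adjusted p = 0.67). Itgal, the alpha chain of LFA-1, which binds the ICAM proteins of other cells, read 6.64 and 6.65 in control and 7.25 and 7.20 in knockout. The groups did not overlap, and the difference was 0.58 (SE 0.09, 95% interval 0.37 to 0.79, adjusted p = 0.025), or 1.49-fold higher. The Itgal call was lost whichever of the 4 arrays was left out, at differences of 0.55 to 0.61 and adjusted p of 0.082 to 0.14, and with no filter on low values (adjusted p = 0.062).

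Itgax and Itgam are neighbours: in RefSeq's GRCm38.p6 gene order, Itgam, Itgax and Itgad follow each other among the protein-coding genes of chromosome 7, and Itgal lies on the same chromosome. Itgad, at 3.20 and 3.23 in control and 3.25 and 3.14 in knockout, was below the filter and was not tested. Itgax thus fell beside Itgam, whose difference was -0.07. The difference of Itgad was -0.02, but at readings below the filter a fall could hardly show. Promoter windows from RefSeq were found for 6 of the 10 members (Itgax, Itgam, Itga4, Itga5, Itgav and Itgb1). The 250 bases before the annotated start are shown for Itgax and Itgam, because the neighbours behaved differently, at chr7:128129300-128129549 and chr7:128062390-128062639 of GRCm38.p6, each on the plus strand. Each runs 5′ to 3′ and ends at the base before the start, with capitals at the matches described after them.
Itgax: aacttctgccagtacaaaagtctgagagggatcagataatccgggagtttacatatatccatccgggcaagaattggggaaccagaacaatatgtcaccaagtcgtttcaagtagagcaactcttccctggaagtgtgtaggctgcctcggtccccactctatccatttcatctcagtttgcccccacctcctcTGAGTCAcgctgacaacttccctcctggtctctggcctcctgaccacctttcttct
Itgam: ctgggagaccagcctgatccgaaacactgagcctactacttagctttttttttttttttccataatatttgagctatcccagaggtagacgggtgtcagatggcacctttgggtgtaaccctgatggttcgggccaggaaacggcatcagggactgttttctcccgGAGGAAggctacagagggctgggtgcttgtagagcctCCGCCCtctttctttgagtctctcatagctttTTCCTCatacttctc
These windows were searched on both strands for 6 motifs: the cyclic AMP response element TGACGTCA, the AP-1 element TGANTCA, the core GAGGAA bound by the myeloid factor PU.1, the GC box GGGCGG, the interferon-stimulated element core (GAAA, any 2 bases, GAAA) and the kB-like letters (GGG, any 3 bases, TTCC). The Itgax window held a single match, the AP-1 letters TGAGTCA at -56 to -50 from the start, which 6.75% of all 32851 windows of this length hold. Itgam held the PU.1 core at -84 to -79 and, on the other strand, at -15 to -10, and a GC box on the other strand at -47 to -42; the PU.1 core occurs in 23.3% and the GC box in 32.7% of all windows. Neither window held the other 3 motifs, which occur in 1.55% (cyclic AMP element), 2.98% (interferon element) and 4.65% (kB-like) of all windows, and no matches overlapped. A match is a description of letters and does not show that a factor binds there.

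The common beta2 chain gene Itgb2 read 11.291 and 11.216 in control and 11.002 and 10.991 in knockout. The groups did not overlap, yet the difference of -0.26 (SE 0.09, 95% interval -0.47 to -0.04) was not called at an adjusted p of 0.15. The alpha chains Itgal, Itgam and Itgax thus differed by 0.58, -0.07 and -2.54 beside a shared partner at -0.26.

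**Figure D2:**
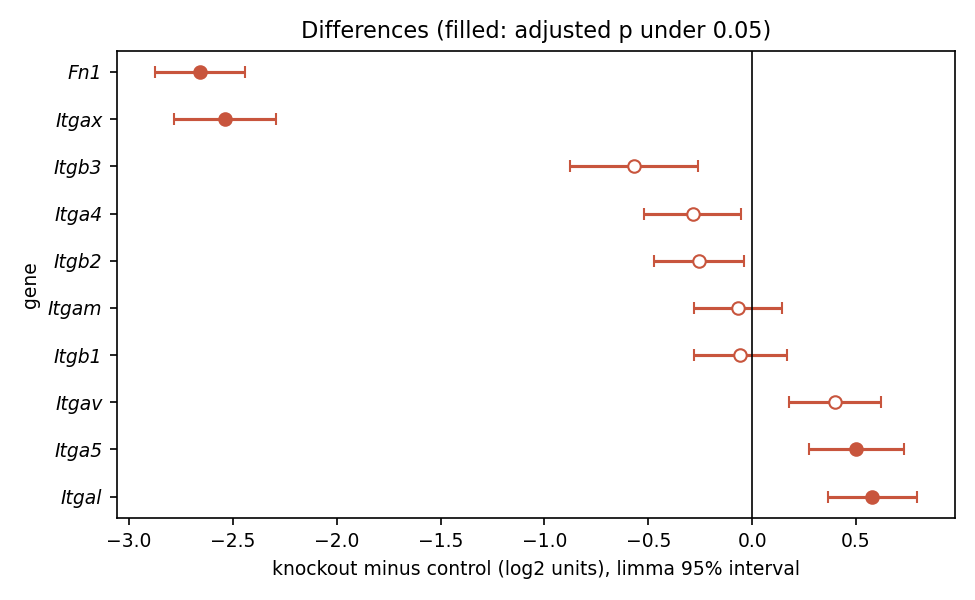
Knockout minus control difference in log2 units (horizontal axis) with its limma 95% interval for each of the 10 genes (vertical axis, 2 arrays per genotype); filled points have an adjusted p under 0.05. Fn1 at -2.66 and Itgax at -2.54 are separated from the next lowest gene, Itgb3 at -0.57, and Itgal at 0.58 and Itga5 at 0.50 are the filled points to the right of 0.

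Among the chains of fibronectin-binding receptors, Itga5 rose, and Itgav, Itgb1, Itgb3 and Itga4 were not called. The alpha chains Itga5 and Itgav had higher values on both knockout arrays, whereas Itga4 and Itgb3 had lower ones. Itga5, the alpha chain of the classical fibronectin receptor, read 10.34 and 10.26 in control and 10.75 and 10.85 in knockout. The genotypes did not overlap, and the difference was 0.50 (SE 0.09, 95% interval 0.27 to 0.73, adjusted p = 0.039), or 1.42-fold higher. This call, too, was lost whichever of the 4 arrays was left out, at differences of 0.45 to 0.55 and adjusted p of 0.11 to 0.21, and with no filter (adjusted p = 0.092). Itgav, the alpha chain of the vitronectin receptors, read 10.39 and 10.41 in control and 10.75 and 10.85 in knockout. Its difference of 0.40 (SE 0.09, 95% interval 0.18 to 0.62) had an adjusted p of 0.061 and was not called; it passed with the stricter filter (adjusted p = 0.032). Itgav was the single member with another feature of its own; that one was dim, at 3.80 and 3.79 in control and 3.70 and 3.60 in knockout, and differed by -0.14. With the mean of these features in place of the brighter one, the Itgav difference was 0.13 (adjusted p = 0.42).

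Windows before the starts of Itga5 and Itgav are shown as those of the fibronectin-binding alpha chains that were higher on both knockout arrays, at chr15:103366792-103367041 on the minus strand and chr2:83724147-83724396 on the plus strand of GRCm38.p6.
Itga5: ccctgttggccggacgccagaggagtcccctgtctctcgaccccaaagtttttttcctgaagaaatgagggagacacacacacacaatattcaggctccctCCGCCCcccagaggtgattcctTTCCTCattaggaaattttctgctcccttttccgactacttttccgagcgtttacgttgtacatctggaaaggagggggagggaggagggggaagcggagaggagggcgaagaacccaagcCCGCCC
Itgav: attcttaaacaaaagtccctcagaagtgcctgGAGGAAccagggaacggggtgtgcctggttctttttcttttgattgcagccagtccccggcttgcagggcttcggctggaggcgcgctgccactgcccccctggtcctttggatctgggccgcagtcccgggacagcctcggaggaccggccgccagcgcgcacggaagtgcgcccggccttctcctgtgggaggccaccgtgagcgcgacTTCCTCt
Itga5 held a PU.1 core on the other strand at -127 to -122 and GC boxes on the other strand at -149 to -144 and at -6 to -1. Itgav held PU.1 cores at -218 to -213 and, on the other strand, at -7 to -2. Of all 6 member windows, that of Itgax alone held the AP-1 letters; Itga4 held a GC box and Itgb1 a GC box and a PU.1 core.

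The beta1 chain gene Itgb1, the partner of many alpha chains, read 11.04 and 10.93 in control and 10.93 and 10.92 in knockout. It was the single member whose groups overlapped, with a difference of -0.06 (95% interval -0.28 to 0.17, adjusted p = 0.74). Itgb3, the beta chain of the alphaV beta3 vitronectin receptor that is also known from platelets and osteoclasts, read 5.13 and 4.88 in control and 4.53 and 4.35 in knockout. The groups did not overlap, but the arrays of a genotype were farther apart than for other members, with SDs of 0.17 and 0.13 (n = 2 each). The difference of -0.57 (SE 0.12, 95% interval -0.88 to -0.26, adjusted p = 0.057) was not called; it passed with the stricter filter (adjusted p = 0.031) and with quantile normalization (adjusted p = 0.049). Itga4, the alpha chain of a receptor for VCAM-1 and fibronectin, read 9.78 and 9.82 in control and 9.44 and 9.58 in knockout. Its groups did not overlap, and the difference of -0.29 (SE 0.09, 95% interval -0.52 to -0.05, adjusted p = 0.14) was not called. A further feature annotated with Itga4 and Cerkl together was left out by the rule; it was dim and read 3.75 in control and 4.07 in knockout on average.

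The differences of the chains that pair in a receptor are set side by side here. For the alphaV chain at 0.40, the tested beta partners stood at -0.06 (Itgb1), -0.57 (Itgb3), 0.32 (Itgb5) and -0.44 (Itgb8). For Itga4 at -0.29 they stood at -0.06 (Itgb1) and 0.36 (Itgb7), and for Itga5 at 0.50 the partner Itgb1 stood at -0.06. These are transcript differences, and surface receptors were not measured in these data; no test of the difference between chains was made.

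**Figure D3:**
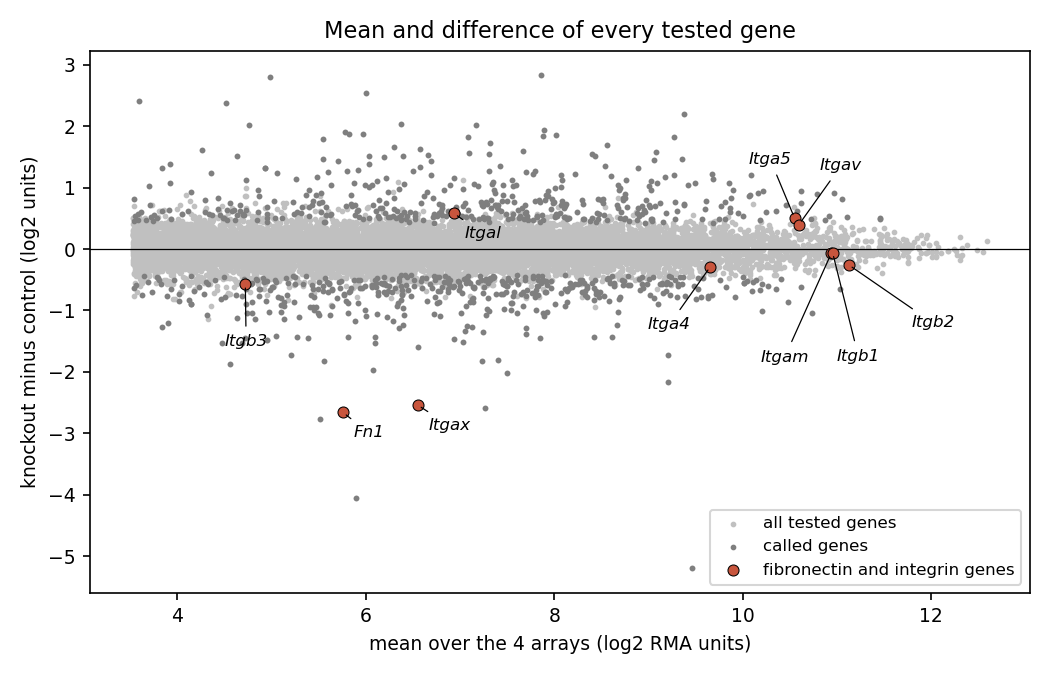
Knockout minus control difference (vertical axis, log2 units) against the mean over the 4 arrays (horizontal axis, log2 RMA units) for the 12542 tested genes, with called genes in darker grey and the 10 fibronectin and integrin genes in red. Fn1 and Itgax lie well below the bulk of the genes, whereas the other 8 members lie within 0.58 of 0.

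Outside the members, 16 further integrin chain genes had a feature. Of these, 8 were above the filter and 1 was called, beside 6.79% of all tested genes. Itga8, an alpha chain that also binds fibronectin, read 5.39 and 5.24 in control and 4.77 and 4.78 in knockout, with no overlap, and fell by 0.54 (SE 0.09, limma adjusted p = 0.036). Itgb7, the beta partner of Itga4 in a gut-homing receptor, read 6.42 and 6.28 in control and 6.71 and 6.72 in knockout (difference 0.36, adjusted p = 0.083). Itgb5 read 9.34 and 9.33 in control and 9.65 and 9.66 in knockout (difference 0.32, adjusted p = 0.086), and Itgb8 had a difference of -0.44 (adjusted p = 0.13). Itga6, the alpha chain of laminin receptors, differed by 0.03, and Itga9, Itga3 and Itgb4 by 0.12, 0.05 and 0.08. None of these 7 was called.

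Genes that act with integrins were described from 7 lists, which were written with earlier results of these data known; they include the further integrin chains. Over all 7 lists, 68 genes were tested, of which 9 fell (13.2%, beside 3.49% of all tested genes) and 2 rose (2.94%, beside 3.3%), and the median difference was 0.01. With any 1 array left out, which leaves 1 array in a genotype, most calls of these lists were lost. Most calls over all tested genes were lost as well. Of 21 activators and adaptors on the cytoplasmic side, 3 fell and 1 rose. Vcl, the gene of vinculin, which links talin to actin, read 9.23 and 9.14 in control and 8.11 and 8.20 in knockout. Its groups were well apart, and it fell by 1.03 (SE 0.09, limma adjusted p = 0.0075), or 2.04-fold. Tln1, the gene of talin, which activates integrins by binding the beta tail, read 10.37 and 10.22 in control and 9.72 and 9.77 in knockout and fell by 0.55 (adjusted p = 0.036). Parvb, of the complex that joins integrin-linked kinase to actin, fell by 0.56 (adjusted p = 0.036). Cytip, a binding partner of cytohesin that regulates leukocyte adhesion, rose by 0.72 (adjusted p = 0.038). The kindlin gene of blood cells, Fermt3, differed by -0.02 (adjusted p = 0.93) and was not called.

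Of 5 tested kinases downstream of integrins, Fgr, a Src-family kinase of myeloid cells, fell by 0.72 (adjusted p = 0.023), from 6.65 and 6.84 in control to 5.99 and 6.06 in knockout, and the other 4 were not called. Of 13 tested ligands other than fibronectin, 3 fell and 1 rose, where 3.49% of all tested genes fell and 3.3% rose. Icam4, an adhesion protein of the ICAM family, fell by 0.65 (adjusted p = 0.035), from 4.13 and 4.39 in control to 3.62 and 3.59 in knockout, near the filter level; Mfge8, a bridge between apoptotic cells and alphaV integrins, fell by 0.64 (adjusted p = 0.035); and the disintegrin protease Adam15 fell by 0.45 (adjusted p = 0.044). Tgfbi, a matrix protein induced by TGF-β, rose by 0.61 (adjusted p = 0.027). Icam1, a ligand of LFA-1 and Mac-1, and Vcam1, a ligand of alpha4 integrins, had differences of -0.11 (adjusted p = 0.48) and 0.32 (adjusted p = 0.13). Of 11 tested genes of other fibronectin-binding and matrix uptake proteins, Sdc1, a heparan sulfate proteoglycan, fell by 0.69 (adjusted p = 0.027) and the other 10, among them the hyaluronan receptor Cd44 at 0.14, were not called. None of the 10 membrane partners, such as the tetraspanins Cd9 at -0.33 and Cd81 at -0.18, was called.

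**Figure D4:**
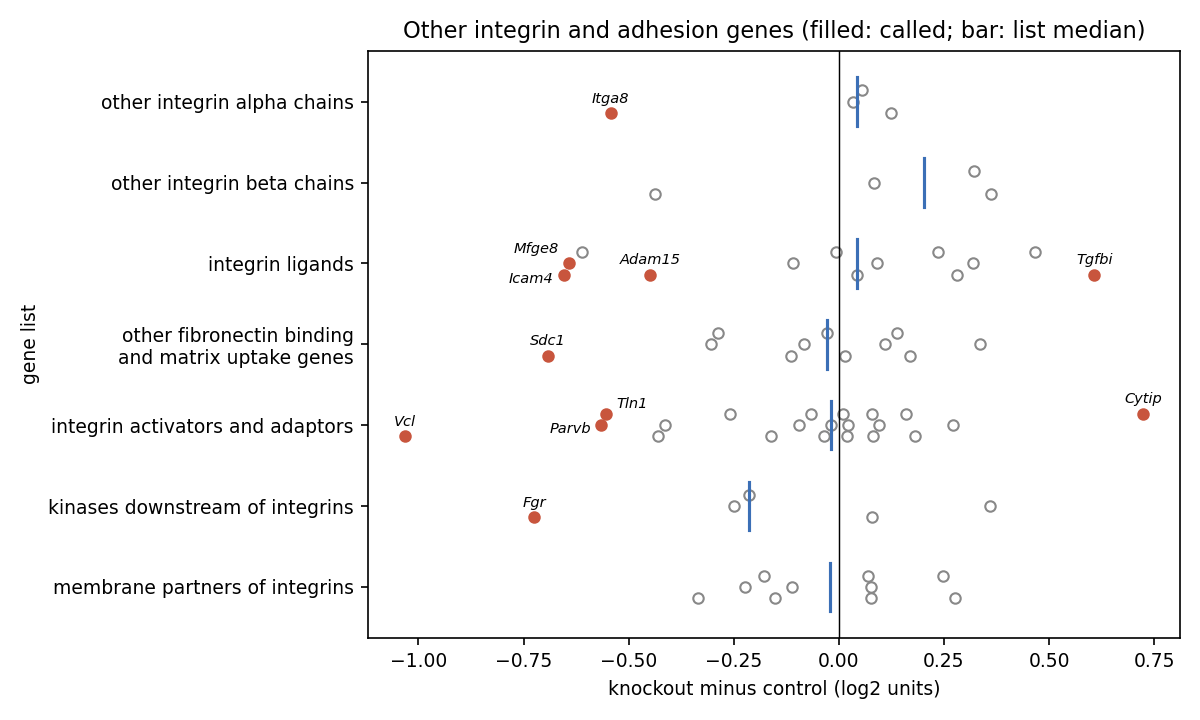
Knockout minus control difference (horizontal axis, log2 units) of the tested genes of the 7 lists (vertical axis), with called genes filled and named and a vertical bar at each list's median. Vcl at -1.03 and Fgr at -0.72 lie farthest to the left and Cytip at 0.72 farthest to the right; no gene of these lists fell by as much as Fn1 or Itgax.

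The profiles of Fn1 and Itgax over the 4 arrays were compared with those of other tested genes. The measure was the root mean square difference of values centred on each gene's mean. Symbols of predicted genes and small RNAs, and those ending in Rik or beginning with a digit, were left out. Closest to Fn1 were Lrrc32 at 0.057, Nes at 0.090, Itgax at 0.098, Chst11 at 0.245 and Qpct at 0.330. For Itgax the nearest were Fn1 at 0.098, Lrrc32 at 0.138, Nes at 0.161, Chst11 at 0.202 and Qpct at 0.267, the same 6 genes in all. Lrrc32 encodes an anchor of latent TGF-β on the cell surface, and Nes the intermediate filament nestin. Lrrc32 read 6.93 and 6.86 in control and 4.09 and 4.17 in knockout, and Nes 8.50 and 8.60 against 5.84 and 6.10. With 4 arrays in a pair of genotypes, this likeness says little more than that these genes had differences of similar size.

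**Figure D5:**
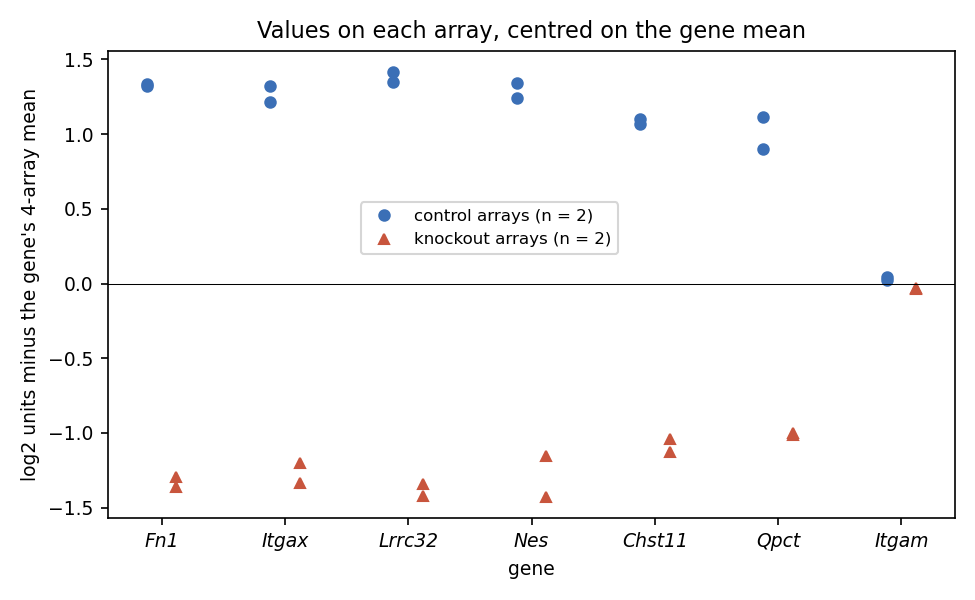
Values on each control array (circles) and knockout array (triangles), in log2 units minus the gene's 4-array mean (vertical axis), for Fn1, Itgax, their nearest genes and Itgam (horizontal axis). The 6 similar genes lie far above their mean on the control arrays and far below it on the knockout arrays, whereas the 4 Itgam values lie close to 0.

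Several members are also markers of other cells, and markers of those cells are given beside them. In bulk RNA, fewer cells of a type and less RNA per cell cannot be told apart. For Itgax, of 7 dendritic cell markers with a feature, Batf3, Siglech, Xcr1 and Zbtb46 were below the filter, and none of the 3 tested was called. The linear signal summed over all 7 was 176 to 198 in control and 182 to 210 in knockout arrays, of which Cd209a alone made up 53.8% to 61.4%. For Fn1, of 8 fibroblast and stromal markers, Col3a1, Dcn, Lum and Pdgfra were below the filter and none of the 4 tested was called. The sum was 94.5 to 95.3 in control and 89.3 to 91.8 in knockout. For Itgb3, of 4 megakaryocyte and platelet markers, Gp9 was below the filter, as was Itga2b, the chain that pairs with Itgb3 on platelets. Of the 3 tested, Ppbp fell by 0.45 and Vwf by 0.88, and the sum was 570 to 734 in control and 535 in each knockout array. Pf4, which differed by -0.19 and was not called, made up 77.5% to 85.2% of that sum, so it says little of the others; their part in the Itgb3 value was not tested. Monocyte markers moved with the genotype as well, in a series where 3.3% of all tested genes rose and 3.49% fell. Of 5 tested monocyte markers, 3 rose (Ly6c2 by 0.76, Ccr2 by 0.83 and Ms4a4c by 1.50) while F13a1 fell by 0.79. Their sum was 1190 to 1306 in control and 1221 to 1287 in knockout, but it mixes these opposite changes, with F13a1 the brightest gene in control, so close sums do not show that the class was level. Their part in the integrin values was not tested. The 8 macrophage markers, of which Fcgr1 rose, summed to 15219 to 16346 in control and 17373 to 17379 in knockout. No marker of neutrophils and their precursors (4 tested), T and NK cells (2), B cells (1) or mast cells, basophils and eosinophils (2) was called.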

How the data were processed

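Total RNA of 4 macrophage cultures was labelled from 400 ng and measured on 1-colour whole-transcript arrays. The deposited values are log2 expression that the authors computed, per the design text of the series, by robust multi-array averaging (RMA) after subtracting optical background. The submitters' processing notes list oligo and RMA and give no version. A change of total RNA per cell is lost in such normalized values, and close integrin paralogs may share probe signal.

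Of 41345 features, 23521 had 1 gene symbol, 1814 several and 16010 no annotation. All 10 member symbols matched RefSeq (GRCm38.p6). Genes whose mean reached the median over all features (3.53) were tested under R 4.3.3 with limma 3.58.1 (a linear model with moderated variance, 2 residual and 3.51 prior degrees of freedom, two-sided). The script was tested on simulated data. Every member was named; other genes were named if called (at most 4 a list), as integrin chains, as cell type markers or as the nearest profiles of Fn1 and Itgax, and the rest (Fermt3, Icam1, Vcam1, Cd44, Cd9, Cd81) after their values were seen. Members, lists and tests were chosen with earlier results of these data known. Alternatives varied the filter, normalization, feature choice, arrays, block, variance model and cutoff.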

Additional observations from a re-analysis of the deposited data

How the results depend on the processing

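Fn1 and Itgax fell in 14 of 15 alternatives, with differences of -2.70 to -2.62 and -2.60 to -2.47. Without pooling the variance across genes, an ordinary t-test gave each an adjusted p of 0.14. That setting called 0 genes in all (2295 at an unadjusted p under 0.05), so 0 members and 0 genes of the 7 lists in either direction. No member changed direction in any of its 15 alternatives. The calls of Itgal and Itga5 were lost, leaving 0 members higher, with no filter (adjusted p = 0.062 and 0.092), with all features as units (0.12 and 0.14), with the replicate block (0.067 and 0.090) and at the 1.5-fold cutoff. Over all 4 left-out arrays, 2 members fell and 0 rose, 43 to 76 genes in all fell and 50 to 119 rose, and 0 to 1 genes of the 7 lists fell and 0 rose. With an intensity trend in the variance, 5 members fell and 3 rose (Itgb2, Itga4, Itgb3 and Itgav were added). The stricter filter added Itgb3 and Itgav (3 fell, 3 rose) and quantile normalization Itgb3 (3 fell, 2 rose). Itgb3 cleared the stricter filter only through its control arrays. The trend gave 793 lower and 791 higher in all, and 6 list genes rose. Counts over all genes, 438 lower and 414 higher, became 154 and 179 with no filter, 710 and 644 with the stricter filter, 7 and 5 with all features as units, and 144 and 168 with the replicate block. Of the list genes, 9 lower and 2 higher, 1 and 0 were called with no filter, 0 and 0 with all features as units and 2 and 0 with the replicate block, while 5 rose with the stricter filter. Why these settings moved the counts was not tested. The replicate numbers were not taken to pair the arrays: deviations of same-numbered arrays correlated at r = -0.036 over genes. For Fn1 and Itgb3 in knockout, low signal limits how exactly the size of the difference is known.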
